A study of Mus musculus with 16 samples.

Results

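The ventral midbrain (vMB) libraries of the series compared mice carrying a *Cdh2* H150Y knock-in with wildtype (WT) mice. They are the 8 of 16 libraries whose titles begin with VMB, 4 from WT and 4 from mutant mice, chosen by that label and not by any measured value. All 8 came from 13-week-old males of the C57BL/6JRcc strain, and the mutants were homozygous for a CRISPR/Cas9 knock-in that replaces histidine 150 of N-cadherin with tyrosine. The other 8 libraries came from the prefrontal cortex (PFC) of the same genotypes, sex and age. The study describes 2 founder lines of mutant mice, behavioral tests before dissection, and perfusion with PBS and then formaldehyde. The sources used here give neither the founder line of a library nor which vMB and PFC libraries share an animal. The p-values therefore measure the spread between these libraries.

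N-cadherin, the product of *Cdh2*, is an adhesion protein that needs calcium, joins neighbouring cells and links through catenins to the actin cytoskeleton. It is made as a precursor that is cleaved before it reaches the cell surface, and it acts in neuronal migration, axon growth and the assembly of synapses. The ventral midbrain holds the dopamine neurons of the substantia nigra and the ventral tegmental area, among GABA and glutamate neurons, glia and vessels. Neurons there depend on long axons, large cytoskeletal and scaffold proteins, and a high output of mitochondrial respiration.

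The deposited values are gene counts that the authors normalized with DESeq2, and every value below is such a normalized value unless it is given on the log2 scale. The values of a vMB library sum to between 8.69 M and 9.12 M, and the step of the low values gives a depth of about 9.28 M to 11.3 M reads (M for mega). The tissue label was met by its defining markers. *Slc6a3*, the dopamine transporter, ranged from 460 to 799 in vMB WT libraries and from 0 to 3.48 in PFC WT libraries, and *En1*, a midbrain homeobox gene, from 93.9 to 175 and from 0 to 1.16. The cortical gene *Tbr1* ranged from 7.81 to 63.6 in vMB WT libraries and from 1360 to 1566 in PFC WT libraries. Mitochondrially encoded genes took 13.0% to 14.8% of the values of a vMB WT library and 14.2% to 16.9% of those of a mutant library. On the first principal component of the vMB values, which carried 23.2% of their variance, the 4 WT libraries lay below 0 and the 4 mutant libraries above it. Mutant 3 lay at 0.483 and was the mutant library nearest to WT on this component. By correlation over all tested genes, WT 3 and mutant 1 were each nearest to the other (r = 0.98023).

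The sample titles carry a code of a letter and a number whose meaning is not given. Codes B1, C2, A2 and D3 occur in both tissues. Whether a shared code marks a shared animal is not given, and the main fit took all 16 libraries as independent. WT libraries bear B, C, E and E, and mutant libraries A, C, D and D, so letter and genotype cannot be told apart except within C, which holds 1 library of each genotype. Within C no test is possible. Of the 481 genes called below, 480 had the same sign in mutant 2 minus WT 2, and both libraries were part of the fit that called them.

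Dissection markers moved with genotype in the hypothalamic list. *Pmch*, the precursor of melanin-concentrating hormone of the lateral hypothalamus, was at 17, 3.68, 268 and 16.1 in WT libraries 1 to 4 and at 229, 168, 307 and 890 in mutant libraries 1 to 4. WT 3 lay within the mutant range, and the groups overlapped. *Hcrt*, the orexin precursor of neighbouring neurons, was at 1.06, 0, 51.9 and 2.12 in WT and at 40.3, 22, 46.7 and 168 in mutant libraries. WT 3 again stood among the mutants. The log2 fold change was 3.68 (standard error 1.06, adjusted p = 0.0466 from limma) for *Pmch* and 3.61 (standard error 0.97, adjusted p = 0.0337) for *Hcrt*. Of the 8 fits that left out 1 vMB library, *Pmch* was called in 1 and *Hcrt* in 2. Over the 6 genes of the list, of which 4 were tested, the summed value ranged from 17.5 to 337 in WT and from 234 to 1140 in mutant libraries. Whether this part of the dissection bears on any other difference was not tested. Markers of choroid plexus and of serotonin neurons also varied widely between libraries, and their ranges overlapped between genotypes. *Ttr* ranged from 287 to 9472 in WT and from 767 to 7987 in mutant libraries, and *Tph2* from 75.5 to 513 and from 100 to 393. The summed cortical list ranged from 959 to 2570 and from 925 to 3590.

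**Figure D1:**
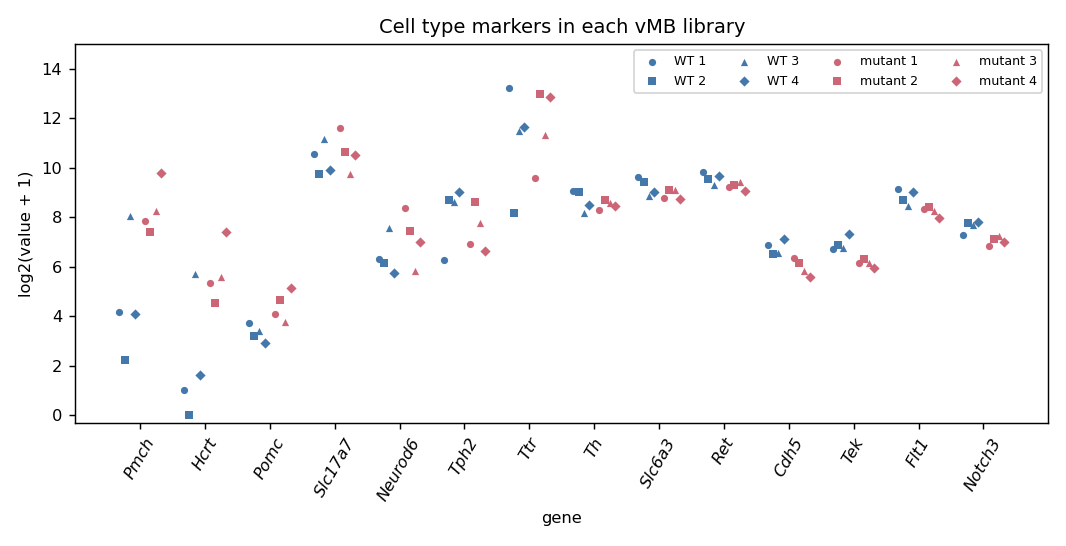
Cell type markers in each vMB library, on the log2 of the normalized value plus 1, with WT libraries in blue, mutant libraries in red and the marker shape giving the library number. *Pmch* and *Hcrt* were high in the 4 mutant libraries and in WT 3, *Ttr* ranged from 287 to 9472 across WT libraries, and *Cdh5* and *Tek* were lower in each mutant library than in each WT library.

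Mutant and WT were compared gene by gene with limma, two-sided, on log2(value + 1), in a model of all 16 libraries and 4 groups, with p-values adjusted over 14814 genes with a mean of at least 10. A differentially expressed gene (DEG) was called where the adjusted p did not exceed 0.05 and the fold reached 1.3 in either direction. On this scale the change of genes with low values is understated. In the vMB 3.25% of tested genes were DEGs, 1.23% higher and 2.02% lower in mutants, or 182 and 299 genes. The WT and mutant values did not overlap for 15.4% of tested genes, 7.82% higher and 7.56% lower in mutants. Under upper-quartile rescaling 258 genes were higher and 241 lower. The median log2 fold change was 0.43 for the DEGs that rose and −0.49 for those that fell, and −0.01 over all tested genes. The count depended on single libraries, and was 163 without WT 4 and 170 without mutant 4. It was 52, with 6 higher and 46 lower, without both mutant libraries of letter D, which leaves 2 mutants. Of the 481 DEGs, 119 stayed called whichever 1 of the 8 vMB libraries was left out, 33 of them higher and 86 lower.

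The change followed the length of the transcript. Summed exon length was taken from the GENCODE vM21 annotation of GRCm38, and its median was 1663 bp for the DEGs that rose, 9177 bp for those that fell and 4414 bp for all tested genes. With the genes in 5 length classes of like size, the median log2 fold change was 0.16 in the shortest class, −0.01 in the middle class and −0.14 in the longest class. Each gene's mean was subtracted and the log2 values of every library were regressed on log2 length, and the slope was −0.0307, 0.00867, 0.0189 and 0.0358 in WT libraries 1 to 4 and −0.0635, −0.122, −0.0669 and −0.117 in mutant libraries 1 to 4. Every mutant library lay below every WT library, with mutant 2 and mutant 4 lowest. The mean was 0.00818 ± 0.0282 in WT and −0.0922 ± 0.0313 in mutants (SD, n = 4, two-sided exact permutation p = 0.0286, the smallest that 4 against 4 allows). The PFC libraries differed in the same direction, from 0.0554 to 0.0980 in WT and from −0.0314 to 0.0284 in mutants. When a smooth trend on length was removed from each library, 0.907% of tested genes were DEGs, 70 higher and 63 lower, and 96 of these 133 had also been called before. Without WT 4 that count was 7 and without mutant 4 it was 18. The medians of the pathway lists are given before and after this removal. The part of transcript length, RNA quality or tissue makeup in these differences was not tested.

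**Figure D2:**
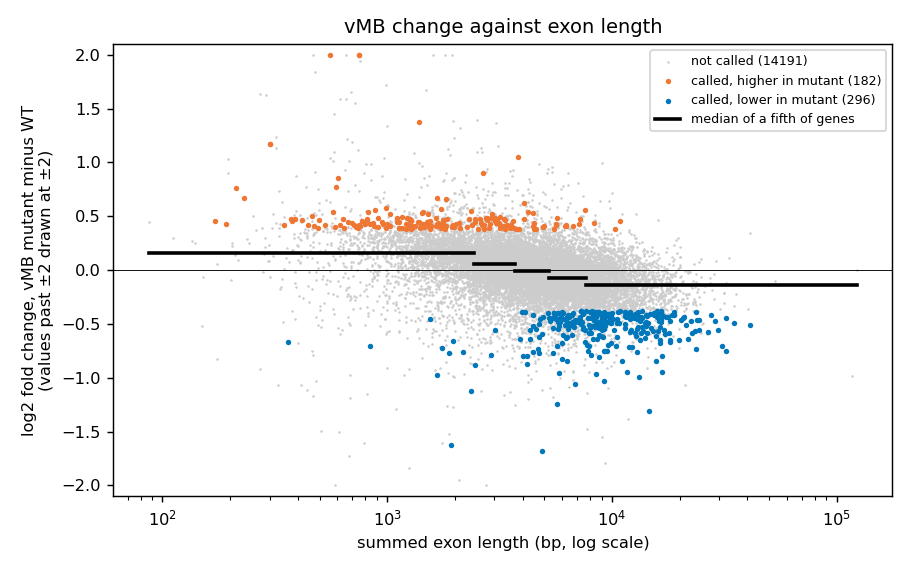
Log2 fold change of each gene with a known exon length in the vMB, mutant minus WT, against summed exon length on a log axis. Orange and blue points are DEGs higher and lower in mutants, gray points are the other tested genes, and black bars mark the median of each of 5 length classes, which falls from 0.16 in the shortest class to −0.14 in the longest.

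The cytosolic ribosomal proteins, the protein components of the translating ribosome, were the list with the most members that rose. Of 78 tested members 31 rose and none fell (39.7%), 77 had a positive log2 fold change, and the WT and mutant values of 59 did not overlap. The median was 0.37, and 0.25 after the length trend was removed, when 9 were called. *Rpl30*, of the large subunit, was at 1086, 978, 878 and 845 in WT and at 1191, 1400, 1318 and 1369 in mutant libraries (chromosome 15 of GRCm38, 34440505 to 34443640, minus strand). Mutant 1 was the lowest of its group and still above every WT library. Its log2 fold change was 0.48 (standard error 0.09, adjusted p = 0.00654 from limma). *Rps18*, of the small subunit, was at 922, 846, 851 and 714 in WT and at 1102, 1171, 1076 and 1288 in mutant libraries (chromosome 17, 33951999 to 33956001, minus strand). Here too the groups did not overlap, and the log2 fold change was 0.48 (standard error 0.09, adjusted p = 0.00595). Both were called with any 1 library left out and after the length trend was removed, at 0.44 and 0.41. *Rps7*, also of the small subunit, rose by 0.42 (adjusted p = 0.00523) and lost its call without WT 4.

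The group as a whole was less stable than these 2 genes. Relative to the WT mean, the median of the ribosomal protein genes was 0.10, 0.05, −0.02 and −0.12 in WT libraries 1 to 4 and 0.23, 0.43, 0.28 and 0.51 in mutant libraries 1 to 4, on the log2 scale. WT 4 was lowest and mutant 4 highest, and without WT 4 the number called was 4, without mutant 4 it was 5, and without mutant 2 it was 15. Without both libraries of letter D it was 0. The ribosomal proteins also have many near-identical processed pseudogenes, and the sources used here do not say how reads shared with them were counted, so the value of any single member is uncertain.

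Promoter sequences are shown for 3 genes that rose, because ribosomal and other housekeeping promoters are known for ETS-family sites near the start of transcription, and for 1 gene that fell. Windows of 250 bases before to 50 after the start site came from RefSeq on GRCm38.p6, and 120 of the DEGs that rose and 208 of those that fell had at least 1 window. Capitals mark ACTTCCG or its reverse complement, the core of an ETS site, in *Rps18* (chr17:33955616-33955915, minus strand), *Rps7* (chr12:28635904-28636203, minus strand) and *Snrpd2* (chr7:19149588-19149887, plus strand), and GGGCGG or its reverse complement, a GC box, in *Kmt2a* (chr9:44881240-44881539, minus strand).
Rps18: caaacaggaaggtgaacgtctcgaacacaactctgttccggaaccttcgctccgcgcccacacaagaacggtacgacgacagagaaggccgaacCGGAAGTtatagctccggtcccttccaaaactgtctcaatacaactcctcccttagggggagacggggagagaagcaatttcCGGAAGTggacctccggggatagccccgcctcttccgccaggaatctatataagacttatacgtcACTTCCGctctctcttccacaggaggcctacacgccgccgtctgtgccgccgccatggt
Rps7: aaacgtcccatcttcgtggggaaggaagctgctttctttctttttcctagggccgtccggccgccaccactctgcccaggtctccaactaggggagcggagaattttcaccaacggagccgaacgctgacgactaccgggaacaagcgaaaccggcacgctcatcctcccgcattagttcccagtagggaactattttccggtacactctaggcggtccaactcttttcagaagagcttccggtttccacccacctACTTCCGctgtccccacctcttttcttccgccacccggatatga
Snrpd2: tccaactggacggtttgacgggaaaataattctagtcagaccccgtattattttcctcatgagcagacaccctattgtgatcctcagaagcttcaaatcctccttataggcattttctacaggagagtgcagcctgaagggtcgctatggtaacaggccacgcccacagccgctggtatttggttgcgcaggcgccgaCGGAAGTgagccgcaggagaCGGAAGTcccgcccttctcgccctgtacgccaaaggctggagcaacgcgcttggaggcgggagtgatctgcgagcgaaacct
Kmt2a: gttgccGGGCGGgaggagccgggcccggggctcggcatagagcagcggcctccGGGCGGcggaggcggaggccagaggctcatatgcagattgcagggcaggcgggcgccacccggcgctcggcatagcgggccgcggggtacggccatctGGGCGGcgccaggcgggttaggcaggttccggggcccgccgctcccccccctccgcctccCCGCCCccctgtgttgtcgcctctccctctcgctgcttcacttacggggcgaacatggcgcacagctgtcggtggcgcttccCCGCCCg
Each window shown was picked among those of its gene that hold the marked motif, so its presence there was fixed in advance. The *Rps18* window holds 3 such cores, *Snrpd2* 2 and *Rps7* 1. *Snrpd2*, a core protein of the spliceosome, rose by 0.44 on the log2 scale (standard error 0.11, adjusted p = 0.0227 from limma), was called in 4 of 8 fits with 1 library left out and was not called after the length trend was removed. It was the single member called of 24 Sm and LSm proteins (median 0.24, and 0.14 after the removal). On either strand, ACTTCCG was found in 22% of windows of DEGs that rose, 7.66% of windows of DEGs that fell, 11.4% of windows of tested genes and 6.42% of all windows. In the shortest length class the share was 12.6%. Among DEGs that rose it was 38.5% for the ribosomal proteins and 18.5% for the others, and it was 26.8% for the ribosomal proteins that were not called. The GC box was found in 59.3% of windows of DEGs that rose, 67.4% of those that fell and 61.0% of those of tested genes, with 35.7% of all windows, and the *Kmt2a* window holds 5. A CCAAT box, searched as CCAAT on either strand, stood in 46.0%, 35.6% and 37.2%, with 37.4% of all windows. These are matches of letters in a window.

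Some nuclear subunits of the respiratory chain rose too. Complex I takes electrons from NADH, and 12 of its 37 tested subunits rose and none fell (32.4%). Their median was 0.35, and 0.20 after the length trend was removed, when 3 were called. *Ndufa5*, an accessory subunit, was at 633, 555, 530 and 530 in WT and at 693, 887, 816 and 842 in mutant libraries. Mutant 1 was nearest to WT, and the groups did not overlap. The log2 fold change of 0.52 (standard error 0.08, limma adjusted p = 0.00369) went to 0.33 without the length trend, which is below the fold minimum. *Ndufa4*, at first described in complex I and since placed in complex IV, went from 1915 ± 193 to 2614 ± 262 (SD, n = 4, log2 fold change 0.45, adjusted p = 0.00415), and *Ndufc2* from 912 ± 42.4 to 1209 ± 91.4 (SD, n = 4, 0.41, adjusted p = 0.00369). Without WT 4 or without mutant 4 the number of complex I genes called was 5, and without both libraries of letter D it was 0.

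Of 42 tested subunits of complexes II to V, which pass electrons to oxygen and make ATP, 13 rose and none fell (31%). Their median was 0.33, and 0.20 after the length trend was removed, when 4 were called. *Usmg5*, a small ATP synthase subunit outside that list and named for the size of its rise, was at 1015, 873, 914 and 764 in WT and at 1111, 1245, 1241 and 1384 in mutant libraries. WT 4 was the lowest and mutant 4 the highest library, and the groups did not overlap (log2 fold change 0.48, standard error 0.09, adjusted p = 0.00532 from limma). It was called with any 1 library left out and, at 0.43, after the length trend was removed. *Cox7a2*, of cytochrome c oxidase, went from 1045 ± 125 to 1420 ± 99.6 (SD, n = 4, 0.45, adjusted p = 0.00535). Without WT 4 only 2 of the complex II to V subunits were called, without mutant 4 it was 6, and without both libraries of letter D it was 1. The 13 mRNAs of mitochondrial DNA, which encode the core subunits of the same complexes, had a median of 0.21 and of 0.01 after the length trend was removed. *mt-Nd3* alone was called (0.42, adjusted p = 0.0496), and in 7 of 8 fits that left out 1 library it was not.

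In the shortest length class 40% of 50 ribosomal protein genes rose against 3.39% of the others, and 33.3% of 30 genes of complexes II to V against 3.71%. The median normalized value in WT was 1202 for those ribosomal genes and 93.8 for the other short genes, and the part of this level in the share called was not tested. On the log2 scale the medians of the fold change were 0.37 for the ribosomal genes and 0.16 for the other short genes.

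A few other compact genes of protein and mitochondrial upkeep rose, where 1.23% of all tested genes did. *Timm22*, the channel of the carrier translocase of the inner membrane, was at 170, 174, 216 and 179 in WT and at 248, 282, 258 and 247 in mutant libraries. WT 3 was the highest of its group, and the groups did not overlap (log2 fold change 0.49, standard error 0.10, adjusted p = 0.0122 from limma). It was 1 of 3 of 26 tested genes of mitochondrial protein import to rise, with a list median of 0.24 and of 0.17 after the length trend was removed, and without WT 4, without mutant 2 or without mutant 4 the number was 1. Of 45 proteasome subunits *Psmb1* and *Psmb3*, both of the catalytic core's beta rings, rose by 0.38 and 0.48 (adjusted p = 0.00616 and 0.00719), with a list median of 0.21 and of 0.13 after the length trend was removed, when both were called. *Psmb3* was called with any 1 library left out, and *Psmb1* was not called without WT 4, without mutant 3 or without mutant 4. Of 76 mitochondrial ribosomal proteins 2 rose, at a median of 0.23 and of 0.16 after the length trend was removed, and without mutant 2 the number was 0. Within the shortest length class 5.26% of proteasome genes rose against 4.01% of the others, near the share of any short gene. The same held for mitochondrial ribosomal genes, at 5.13% against 4%, while for import genes it was 20% of 10 against 3.96%. Without both libraries of letter D no member of these lists was called. *Sumo2*, a small modifier attached to other proteins, was at 621, 571, 486 and 419 in WT and at 748, 792, 656 and 899 in mutant libraries. Its groups did not overlap, with a log2 fold change of 0.57 (standard error 0.13, adjusted p = 0.0158), and the call was lost without WT 4 and without mutant 4. Further genes named by size of rise were *Sptssa*, a small activating subunit of serine palmitoyltransferase (0.52), *Chchd1*, a protein of the mitochondrial ribosome (0.48), *Tbca*, a tubulin-folding cofactor (0.47), the zinc-finger gene *Zfp944* (0.48) and *Fam58b* (0.48), all called with any 1 library left out. Of them *Zfp944* was also called after the length trend was removed.

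**Figure D3:**
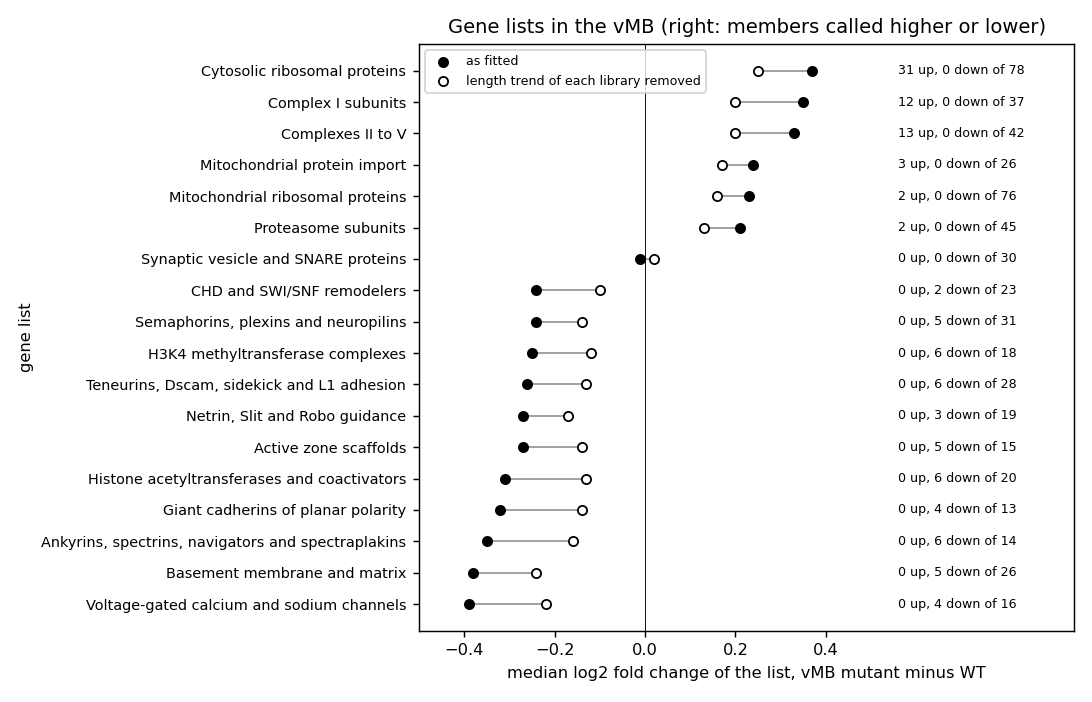
Median log2 fold change of 18 gene lists in the vMB, mutant minus WT, as fitted (filled) and after removal of the length trend (open), with the number of members called in each direction at the right. Ribosomal proteins lie at 0.37 and 0.25 and calcium and sodium channels at −0.39 and −0.22, and each list except that of synaptic vesicle proteins moves toward 0 without changing sign.

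Genes that write methylation of histone H3 at lysine 4 were among those that fell. The KMT2 and SETD1 complexes place this mark at promoters and enhancers, and 6 of their 18 tested members fell and none rose (33.3%), with a median of −0.25 and of −0.12 after the length trend was removed. The 6 were the catalytic subunits *Kmt2a*, *Kmt2b*, *Kmt2c*, *Kmt2d* and *Setd1a* and the KMT2C and KMT2D partner *Ncoa6*. *Kmt2d* was at 755, 884, 743 and 928 in WT and at 537, 542, 519 and 500 in mutant libraries (chromosome 15, 98831669 to 98871204, minus strand). The mutant values lay within a narrow band below every WT value, with a log2 fold change of −0.65 (standard error 0.09, adjusted p = 0.0019 from limma). *Kmt2b* was at 541, 496, 560 and 514 in WT and at 317, 288, 290 and 420 in mutant libraries, where mutant 4 was nearest to WT (−0.70, standard error 0.13, adjusted p = 0.00651). *Kmt2c* went from 857 ± 27.7 to 621 ± 53.0 (SD, n = 4, −0.47, adjusted p = 0.0019). After the length trend was removed *Kmt2a* (−0.58), *Kmt2b* (−0.56), *Kmt2d* (−0.41) and *Setd1a* (−0.39) were called and *Kmt2c* (−0.22, adjusted p = 0.0882) was not. Between 5 and 8 members of the list were called with 1 library left out, and 5 without both libraries of letter D.

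The list of histone acetyltransferases and coactivators also held 6 members that fell of 20 tested and none that rose, with a median of −0.31 and of −0.13 after the length trend was removed. They included *Crebbp* and *Ep300*, the CBP and p300 acetyltransferases, *Kat6a* and *Kat6b*, and the Mediator subunit gene *Med13l*. *Crebbp* was at 246, 281, 268 and 286 in WT and at 212, 193, 198 and 189 in mutant libraries, without overlap (log2 fold change −0.45, standard error 0.08, adjusted p = 0.00595 from limma). None of the 6 was called after the length trend was removed, and without WT 4 or without mutant 4 the number was 2. Without both libraries of letter D it was 1 in this list and 0 among the remodelers below. Of 23 CHD and SWI/SNF remodelers (median −0.24, and −0.10 after the removal) 2 fell, 1 without WT 4 or without mutant 4, *Chd1* and *Arid1a* (957 ± 126 to 671 ± 23.1, SD, n = 4, −0.50, adjusted p = 0.00406). *Chd8* and *Chd5* had log2 fold changes of −0.36 and −0.37 (adjusted p = 0.00765 and 0.0102), just under the fold minimum.

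Ankyrins, spectrins, navigators and spectraplakins tie membrane proteins and microtubules to the cell cortex. Of 14 tested, 6 fell and none rose (42.9%). Their median was −0.35, and −0.16 after the length trend was removed, when 2 were called. *Nav2*, a navigator that binds microtubules and acts in axon growth, was at 361, 375, 396 and 367 in WT and at 235, 204, 229 and 224 in mutant libraries (chromosome 7, 48908716 to 49610090, plus strand). The groups were far apart, and the log2 fold change was −0.75 (standard error 0.07, adjusted p = 3.33e-05 from limma). It stayed a DEG in each of 23 alternatives, at adjusted p of 2.53e-05 to 0.0225 from limma. After the length trend was removed it was at −0.44. Its call was not checked with that trend removed and 1 library also left out, or without the mutants of given title letters. *Nav1* went from 1174 ± 65.8 to 778 ± 34.8 (SD, n = 4, −0.59, adjusted p = 0.0019 from limma), and at −0.37 was not called after the length trend was removed. *Plec*, the cytolinker plectin, was at 1155, 1129, 1077 and 1400 in WT and at 773, 712, 820 and 680 in mutant libraries, without overlap (−0.67, standard error 0.10, adjusted p = 0.0019). The other 3 were *Ank3*, ankyrin-G of the axon initial segment, *Sptbn4*, beta-IV spectrin of the same segment, and *Dst*, dystonin.

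The giant cadherins of planar polarity are relatives of N-cadherin that orient cells within tissues, and 4 of 13 tested fell and none rose, *Fat1*, *Dchs1*, *Celsr2* and *Celsr3* (median −0.32, and −0.14 after the length trend was removed). *Celsr3*, which acts in the guidance of forebrain and brainstem axon tracts, was at 704, 872, 864 and 893 in WT and at 537, 584, 569 and 539 in mutant libraries (chromosome 9, 108826320 to 108852969, plus strand). WT 1 was the lowest WT library, and the groups did not overlap (log2 fold change −0.57, standard error 0.08, adjusted p = 0.0019 from limma). *Fat1* went from 623 ± 63.0 to 409 ± 54.7 (SD, n = 4, −0.61, adjusted p = 0.00306). Between 4 and 5 members were called with any 1 library left out, and 3 after the length trend was removed. The list of cadherin-catenin genes and of the enzymes that process N-cadherin had 21 members, of which 4 fell, at a median of −0.16 and of −0.04 after the removal. These were *Ctnnd1*, *Iqgap1*, *Vcl* and *Mllt4*, of which *Iqgap1* alone was called with any 1 library left out and none was called after the removal. Without WT 4, without mutant 2 or without mutant 4 the number called was 1, and without both libraries of letter D it was 0.

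In the vMB *Cdh2* itself separated the mutant libraries by title letter. It was at 1082, 1115, 1148 and 1124 in WT and at 1110, 1043, 590 and 574 in mutant libraries, and mutants 3 and 4 both bear the letter D. Mutant 1 lay within the WT range. The log2 fold change was −0.50 (standard error 0.18, adjusted p = 0.107 from limma), so it was not called. In the PFC, whose mutant libraries bear A, A, D and D, the *Cdh2* mean was 1053 in WT and 635 in mutant libraries. These means do not say whether the PFC values also split by letter, and single PFC values are not reported here. The log2 fold change there was −0.74 (adjusted p = 0.0745 from limma), which was not called either. The study reports *Cdh2* transcripts as downregulated in mutants. The substitution does not remove the transcript, and the level of *Cdh2* is no check of the genotype labels.

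Families of guidance and adhesion genes of growing axons held members that fell and none that rose, where 2.02% of all tested genes fell. In the longest length class 196 of 2934 genes fell and 3 rose. Of 31 semaphorins, plexins and neuropilins 5 fell, *Sema4g* and the receptors *Plxna1*, *Plxna3*, *Plxna4* and *Plxnb1*, with a median of −0.24 and of −0.14 after the length trend was removed. *Plxna1* was at 905, 1065, 901 and 949 in WT and at 750, 697, 720 and 641 in mutant libraries, without overlap (log2 fold change −0.44, standard error 0.08, adjusted p = 0.00651 from limma). *Plxna3* went from 350 ± 26.8 to 214 ± 16.2 (SD, n = 4, −0.70, adjusted p = 0.0147). Of 19 genes of netrin, Slit and Robo guidance all had a negative log2 fold change (median −0.27, and −0.17 after the removal), and 3 fell, the netrin receptor *Dcc*, the Slit receptor *Robo1* and *Srgap1*, a Rac and Cdc42 inhibitor downstream of it. *Srgap1* was at 344, 372, 376 and 420 in WT and at 252, 243, 272 and 214 in mutant libraries, again without overlap (−0.62, standard error 0.12, adjusted p = 0.00727). Of 28 teneurins, Dscam, sidekick and L1-type proteins 6 fell (median −0.26, and −0.13 after the removal), and *L1cam*, an adhesion protein of axons, went from 1321 ± 62.5 to 945 ± 20.5 (SD, n = 4, −0.48, adjusted p = 0.00168). Of 20 ephrins and Eph receptors (median −0.11, and −0.10 after the removal) *Efna5* and *Epha10* fell, at −0.80 and −0.48. The table lists *Efna5* under a pair of identifiers, and this value is that of ENSMUSG00000048915 on chromosome 17. After the length trend was removed *Srgap1* and *Efna5* were the called members of these 4 lists, and without WT 4 or without mutant 4 the counts were 1, 1, 2 and 0. Without both libraries of letter D they were 0, 0, 1 and 0. In the longest length class 29.4% of 17 genes of the semaphorin list fell against 6.55% of the others. The shares there were 27.3% of 11 against 6.6% for the netrin list, and 21.7% of 23 against 6.56% for the teneurin list.

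Ion channels and presynaptic scaffolds of large size also had members that fell. All 16 tested voltage-gated calcium and sodium channel genes had a negative log2 fold change, with a median of −0.39 and of −0.22 after the length trend was removed. Those that fell were *Cacna1b*, the N-type channel of presynaptic terminals, *Cacna1d*, the L-type channel that supports pacemaking in dopamine neurons, and *Unc79* and *Unc80*, subunits of the sodium leak channel complex. *Cacna1d* was at 254, 288, 304 and 297 in WT and at 197, 173, 203 and 190 in mutant libraries, without overlap, at −0.58 (standard error 0.09, adjusted p = 0.00369 from limma) and at −0.41 after the length trend was removed. The number of these channel genes called was 2 without mutant 4 and 7 at the most with 1 library left out. After the length trend was removed it was 1. Of 34 potassium and HCN channel genes (median −0.19, and −0.07 after the removal) only *Kcnt1* fell (−0.42, adjusted p = 0.0109), and it was not called without mutant 1.

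Of 15 active zone scaffolds, which hold vesicles at the site of release, 5 fell, *Bsn*, *Pclo*, *Unc13a*, *Unc13b* and *Rimbp2*. *Pclo* went from 1188 ± 67.6 to 859 ± 84.9 (SD, n = 4, −0.47, adjusted p = 0.00447 from limma). After the length trend was removed it was at −0.21 (adjusted p = 0.0851) and not called. The list's median was −0.27 and −0.14 after the length trend was removed, when 1 member was called. Its count of calls was 1 without mutant 4 and 0 without both libraries of letter D. No member was called of 30 synaptic vesicle and SNARE genes (median −0.01, and 0.02 after the removal), 25 glutamate receptor genes (−0.13 and 0.01) or 15 GABA-A receptor genes (−0.01 and 0.09), where 3.25% of all tested genes were called. Across the synapse, *Shank1*, a master scaffold of excitatory synapses, was at 1920, 1890, 2112 and 1696 in WT and at 1345, 1192, 1216 and 1182 in mutant libraries. It fell by 0.62 on the log2 scale (standard error 0.10, adjusted p = 0.00369) and by 0.48 after the length trend was removed. It was the single member called among 22 postsynaptic scaffolds (median −0.19, and −0.05 after the removal), of which up to 4 were called with 1 library left out.

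Of 34 Wnt signalling genes *Dvl2*, *Dvl3* and *Bcl9l* fell, at −0.45, −0.43 and −0.39, with a list median of −0.17 and of −0.10 after the length trend was removed, when none was called. *Dvl2* was called with any 1 library left out, and without WT 4, without mutant 2 or without mutant 4 it was the single member called. Of 44 genes that the study listed as differentially expressed in these same mice, 24 fell and 1 rose, and since they were picked on these samples their direction is not independent evidence. The number that fell was 11 without WT 4, 10 without mutant 4 and 14 without mutant 2.

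**Figure D4:**
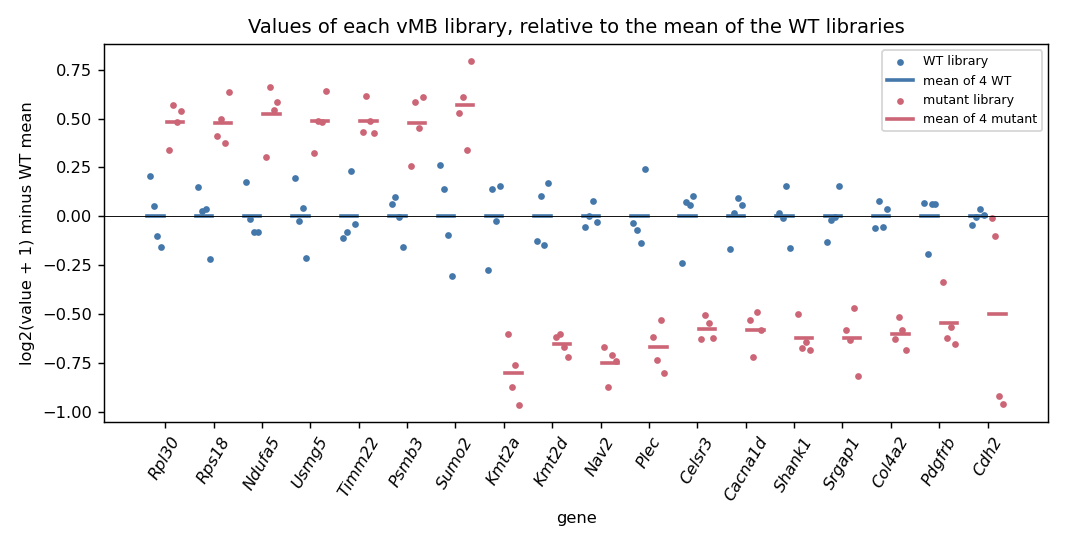
Values of 18 genes in each vMB library on the log2 of the normalized value plus 1, relative to the mean of the 4 WT libraries (blue WT, red mutant, bars the means of 4). In each gene from *Rpl30* to *Pdgfrb* the mutant libraries lie apart from the WT libraries, while mutants 1 and 2 of *Cdh2* lie near WT at 1110 and 1043.

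In the longest length class 45.5% of 11 H3K4 methyltransferase genes fell against 6.53% of the others, and 42.9% of the 14 cytoskeletal genes against 6.51%. The medians of the log2 fold change there were −0.38 and −0.35, and −0.14 for the other long genes in both cases. The 16 channel genes all lay in this class, and 25% of them fell against 6.58%. Of 18 CHD and SWI/SNF remodelers in the class 11.1% fell against 6.65%. The shares were 42.9% of 14 against 6.51% for the acetyltransferases and coactivators, and 44.4% of 9 against 6.56% for the giant cadherins. They were 33.3% of 9 against 6.6% for the cadherin-catenin list and 41.7% of 12 against 6.54% for the active zone scaffolds. The median normalized value in WT was 528 for the H3K4 genes, 1955 for the cytoskeletal genes and 702 for the channel genes. For the other long genes it was 362, 361 and 361, and the part of this level in the share called was not tested.

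Some vessel markers fell in mutants, and in bulk tissue fewer cells of a type and less RNA per cell cannot be told apart. *Cdh5*, the cadherin of endothelial junctions, was at 118, 92.0, 93.7 and 137 in WT and at 80.2, 70.6, 55.7 and 47.5 in mutant libraries. WT 1 and WT 4 were high, and the groups did not overlap (log2 fold change −0.80, standard error 0.17, adjusted p = 0.0123 from limma). Of 15 endothelial markers 4 fell, *Pecam1*, *Cdh5*, *Flt1* and *Tek*, at a median of −0.40 that was −0.38 after the length trend was removed. *Pdgfrb*, the receptor that marks pericytes, was at 167, 139, 166 and 166 in WT and at 126, 103, 107 and 101 in mutant libraries, without overlap (−0.54, standard error 0.10, adjusted p = 0.00751), and was called with any 1 library left out. With *Notch3* it made 2 of 12 pericyte and smooth muscle markers that fell, at a median of −0.51 and of −0.50 after the removal. The median exon length of these lists, 4712 and 4340 bp, lay near that of all tested genes, and with the length trend removed the numbers called were 2 and 1. Summed over the list, endothelial markers ranged from 3840 to 5060 in WT and from 3670 to 4230 in mutant libraries, and those of pericytes and smooth muscle from 2350 to 2680 and from 1980 to 2160. Without WT 4 or without mutant 4 no endothelial marker and 1 pericyte marker were called, and without mutant 2 the pericyte number was also 1. Without both libraries of letter D both numbers were 0.

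Of 26 tested basement membrane and matrix genes 5 fell, among them *Fn1*, *Col4a1*, *Col4a2* and *Tnr*, at a median of −0.38 and of −0.24 after the length trend was removed. *Tnr* encodes a matrix protein of neural tissue. Without WT 4, without mutant 2 or without mutant 4 the number was 2, without both libraries of letter D it was 0, and with the length trend removed it was 2. *Col4a2*, a chain of type IV collagen, was at 464, 510, 465 and 496 in WT and at 313, 338, 323 and 301 in mutant libraries, far apart (−0.60, standard error 0.11, adjusted p = 0.00719 from limma). *Sned1*, a matrix glycoprotein gene, went from 261 ± 41.6 to 154 ± 11.3 (SD, n = 4, −0.75, adjusted p = 0.00824). The part of vessels in the matrix genes was not tested. None of 10 fibroblast markers (median −0.34) and none of 16 integrins (median −0.08, and 0.02 after the removal) was called.

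Markers of other glia and of blood were tested as well. None of 11 astrocyte (median 0.01), 10 oligodendrocyte (0.10), 7 oligodendrocyte precursor (−0.13) or 5 blood markers (−0.23) was called. Of 10 microglia markers *P2ry12*, a receptor of resting microglia, rose by 0.38 (adjusted p = 0.0443 from limma), and 5 of 8 fits that left out 1 library did not call it. None of 17 immediate early genes was called (median 0.04).

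The genes of dopamine neurons did not pass the test. None of 10 tested markers was called, at a median of −0.32 and of −0.30 after the length trend was removed. The summed value of the 12 listed markers ranged from 4420 to 5530 in WT and from 4050 to 5060 in mutant libraries. *Slc18a2*, the vesicular transporter that loads dopamine, was at 467, 692, 524 and 678 in WT and at 392, 545, 474 and 347 in mutant libraries, with overlap (−0.43, standard error 0.21, adjusted p = 0.265 from limma). *Ret*, the receptor of the growth factor GDNF, was at 908, 752, 626 and 816 and at 591, 637, 695 and 536 (−0.33, adjusted p = 0.303), and *Th*, tyrosine hydroxylase, at 531, 523, 289 and 360 and at 312, 412, 382 and 346 (−0.19, adjusted p = 0.708). For *Th*, *Slc18a2* and *Ret* the groups overlapped. A p of this size does not show that the levels were alike.

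Some genes moved against the length trend, and these were chosen after their values were seen. Among the longest length class 3 DEGs rose. *Tmem167*, a small protein of the secretory pathway with a 10807 bp exon sum, was at 335, 311, 337 and 374 in WT and at 429, 475, 432 and 523 in mutant libraries, without overlap (log2 fold change 0.45, adjusted p = 0.00765 from limma). It was called with any 1 library left out and, at 0.60, after the length trend was removed. *Ssbp1*, which binds single-stranded mitochondrial DNA, rose by 0.43 (adjusted p = 0.0141), and *Macrod2* by 0.38 (adjusted p = 0.0347). Of the 10 DEGs of the shortest length class that fell, *H2-T24*, a non-classical histocompatibility gene, was at 45.0, 63.4, 60.8 and 46.9 in WT and at 27.2, 36.9, 32.7 and 28.4 in mutant libraries. It fell by 0.76 on the log2 scale (adjusted p = 0.00957) and was called with any 1 library left out. *Tac2*, the neurokinin B precursor, was also chosen after its values were seen, but did not move against the length trend. It rose from 18.9, 12, 17.8 and 11.4 in WT to 38.4, 22.3, 52.5 and 53.9 in mutant libraries (1.37, adjusted p = 0.00595 from limma). The gene is expressed in hypothalamic neurons as well as elsewhere. It was called with any 1 library left out and, at 1.22, after the length trend was removed. Unlike *Pmch*, it was not raised in WT 3.

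The same comparison was made in the PFC, where 21 genes were DEGs (0.142%), and 7 genes were called in both tissues. The vMB change minus the PFC change passed for no gene with limma (smallest adjusted p = 0.5), while 864 of 14814 genes had an unadjusted p under 0.05. Of the 481 vMB DEGs, 447 had the same sign in the PFC, with a median PFC log2 fold change of 0.29 for those that rose and −0.23 for those that fell. The share of same-sign genes over all tested genes is not given here. The slope on length also differed in the same direction in both tissues, and some title codes occur in both. The count is therefore no independent check of the vMB calls. The ribosomal proteins had a median of 0.37 in the vMB and 0.33 in the PFC, while that of the H3K4 methyltransferase genes was −0.25 and −0.16, and that of endothelial markers −0.40 and −0.08.

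Named genes called in the vMB with the opposite sign in the PFC included *Arhgef1*, *Plxna3* and *Pmch*. *Arhgef1*, a guanine nucleotide exchange factor, was at 733, 772, 621 and 722 in vMB WT and at 370, 502, 445 and 441 in vMB mutant libraries, without overlap (log2 fold change −0.70, standard error 0.11, adjusted p = 0.00369 from limma), and had a log2 fold change of 0.10 in the PFC. The difference between tissues was −0.80 (unadjusted p = 0.000105, adjusted p = 0.516 from limma) and did not pass. Others of the largest falls kept their sign, such as the long non-coding RNA *Miat* (2467 ± 52.8 to 1476 ± 220 in the vMB, SD, n = 4, −0.75, and −0.26 in the PFC) and the centrosome linker gene *Cep250* (−0.71 and −0.27). *Mapkbp1*, a JNK-binding protein gene, was at −0.67 and −0.27.

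**Figure D5:**
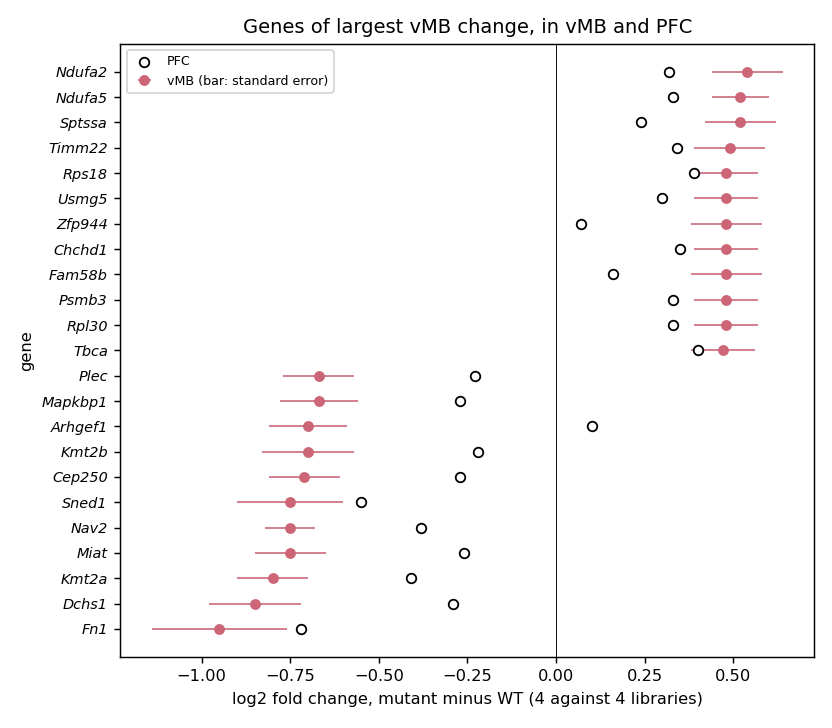
Log2 fold change, mutant minus WT, of the 12 largest rises and 11 of the 12 largest falls among stable vMB DEGs, in the vMB (red, bar the standard error) and in the PFC (open circles). *Fn1* lies at −0.95 in the vMB and −0.72 in the PFC, and *Arhgef1* is at −0.70 in the vMB and 0.10 in the PFC.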

How the data were processed

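Total RNA of micro-dissected vMB and PFC from WT and *Cdh2* H150Y mice was sequenced by the authors as poly-A, single-end libraries, 4 per tissue and genotype. Per the labels and methods, reads were trimmed with Cutadapt 1.8.3, mapped with TopHat 2.0.10, counted per gene with HTSeq 0.6.1p1 and normalized with DESeq2 (no version given in the sources used here). The build named is GRCh38, while the identifiers are those of mouse genes, so the mouse build is not known and coordinates come from GENCODE vM21 on GRCm38. The deposited values are a normalized signal per gene on a linear scale, in 16 columns and 39017 rows. The same table deposited by the authors holds the p-value and adjusted p-value of their comparisons, a signed fold score and a pass mark, none of which was used. Low values were whole multiples of 1 step, within 0.05, for 97.2% to 98.0% of genes with 1 transcript in the vMB libraries and for 39.6% to 43.2% of genes with several, so reads were not recovered and no count test was run. The approximate depth of 9.28 to 11.3 M reads (M for mega) per vMB library comes from that step.

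Genes with a mean of at least 10 over 16 libraries (14814) were tested on log2(value + 1) with limma 3.58.1 in R 4.3.3, with a mean-variance trend and Benjamini-Hochberg adjustment, and called where the adjusted p did not exceed 0.05 and the fold reached 1.3. Summed exon lengths were found for 14669 of them (99.0%), and a loess curve of span 0.3 on log2 length was subtracted from each library for the comparison without the length trend. The test was run on simulated data with known changes. Tables and plots used Python 3.11.15, pandas 2.3.3, numpy 2.4.6 and matplotlib 3.10.9.

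Genes named are the 12 largest rises and 12 largest falls among called genes with a vMB mean of at least 50, no overlap and a call with each vMB library left out, gene models without a name set aside, then the 6 and 6 that were also called without the length trend, up to 3 members of each list with the smallest p, and genes the study names. Other called members of a list are named to complete its count, and the genes given as moving against the length trend, with *Tac2*, *Chd5*, *Chd8* and *Snrpd2*, were chosen after their values were seen. Members and lists were chosen with earlier results of these data known. Alternatives changed the pseudocount, the filter on low values, the scaling, the libraries fitted, the variance trend, the fold minimum, the length correction and a block for replicate number or title letter. Replicate numbers were not taken to pair WT with mutant libraries. Some genes that this rule or the lists hold are not reported here.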

Additional observations from a re-analysis of the deposited data

Results flagged for a closer look

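For 158 named genes the 4 vMB libraries of each genotype were searched for a library far from the other 3, by the ratio of its gap to the range of the group against Dixon's critical value at the 95% level. Of 316 groups 17 passed, and chance passes about 1 in 20.

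Among the hypothalamic genes, *Pmch* was highest in WT 3 at 268 against 3.68 to 17 (ratio 0.95), and *Hcrt* was highest in WT 3 at 51.9 against 0 to 2.12 (ratio 0.959). In the mutants *Hcrt* was highest in mutant 4 at 168 against 22 to 46.7 (ratio 0.83). WT 3 also had the lowest value of the haemoglobin gene *Hba-a1*, 105 against 287 to 320 (ratio 0.843), and of the microglial complement gene *C1qb*, 400 against 415 to 418 (ratio 0.852). It had the highest values of *Gabra5*, a GABA-A receptor subunit, 525 against 451 to 463 (ratio 0.84), and of the teneurin *Tenm4*, 888 against 741 to 752 (ratio 0.928).

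Other WT libraries passed for *Celsr3*, lowest in WT 1 at 704 against 864 to 893 (ratio 0.847), and for *Pdgfrb*, lowest in WT 2 at 139 against 166 to 167 (ratio 0.965). Mutant 1 was lowest for the integrin *Itga3* at 295 against 327 to 330 (ratio 0.922) and for the import gene *Timm8b* at 514 against 576 to 589 (ratio 0.836), and highest for the transporter *Slc6a13* at 68.2 against 44.2 to 47.0 (ratio 0.884). Mutant 2 was highest for *Chchd1* at 282 against 250 to 254 (ratio 0.863) and for the channel gene *Hcn3* at 230 against 155 to 162 (ratio 0.898), and lowest for the astrocyte gene *S100b* at 3762 against 4042 to 4055 (ratio 0.955). Mutant 4 was highest for *Cep250* at 263 against 226 to 228 (ratio 0.958) and for the complex II subunit *Sdhb* at 1506 against 1387 to 1403 (ratio 0.871).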

How the results depend on the processing

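Against 481 DEGs (182 higher, 299 lower) in the vMB, the count was 133 (70 and 63) with the length trend removed, 956 (459 and 497) with no fold minimum and 99 (15 and 84) at a fold of at least 1.5. With 1 vMB library left out it ranged from 163 to 573 (45 to 257 higher, 118 to 318 lower), with the lowest count without WT 4 and 170 without mutant 4, and 110 rose without mutant 2. Among alternatives chosen after seeing the data, removal of the length trend with 1 library left out gave, for WT libraries 1 to 4 in turn, 124 (81 and 43), 70 (40 and 30), 114 (53 and 61) and 7 (2 and 5), and for mutant libraries 1 to 4, 155 (102 and 53), 59 (25 and 34), 92 (50 and 42) and 18 (6 and 12). The count was 52 (6 and 46) without the mutants of title letter D and 353 (134 and 219) without those of A and C. The slope on length, mutant minus WT, was −0.1, −0.0308 with no filter on low values, and between −0.113 and −0.0906 with 1 library left out. The causes were not tested. No gene passed for the difference between tissues in any fit made.

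With a replicate block 466 genes were called, 425 of them shared with the fit without it, and with the block and the length trend removed 113 (60 and 53). Deviations of same-numbered WT and mutant libraries correlated at 0.0371, 0.0873, −0.0878 and −0.0462, so the numbers do not pair them. Of 158 named genes 155 kept their side of the threshold under the block. Over the alternatives other than those chosen after seeing the data, 3627 values of the named genes were compared. Of these 279 lost and 72 gained a call. Among values called in the main fit or in the alternative 0 changed direction. Changes of sign in genes called in neither were not counted. Genes with low values are limited by depth, and 4 libraries per group limit every test.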
